A study of Mus musculus with 5 samples.

Results

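The 39 genes described here are expressed by microglia and macrophages and were listed by symbol. They fall into 12 core myeloid genes, 10 genes of homeostatic microglia, 9 genes of activated microglia and 8 genes often used for monocyte-derived macrophages. They were chosen by name, with earlier results of these data known. Through its RefSeq accession, a probe was found for 38 of the 39 among 21149 genes named on the array, and all 38 were tested among 16891 genes. Clec7a, a pattern receptor of activated microglia, had no probe matched by accession and has no value here.

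The data come from 3 gliomas and 2 samples of normal brain, all of postnatal day 150, whose total RNA was measured on single-colour Agilent SurePrint mouse arrays with 1 sample on each. The glioma sample titles name MADM (mosaic analysis with double markers), a mouse genetic scheme in which recombination between paired chromosomes makes scattered, colour-labelled mutant cells beside wild-type sister cells. The labels used here give no altered gene, Cre driver, strain, sex or brain region, and do not say whether samples of a group came from separate mice, so the spread behind each p-value is that between these samples and may be technical. Whole tissue was profiled, so fewer cells of a type and less RNA per cell cannot be told apart.

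Microglia are the resident macrophages of the brain and depend on CSF1R, the receptor for the cytokines CSF1 and IL-34. The transcription factor PU.1, encoded by Spi1, is needed for myeloid genes to be expressed. In disease models microglia lower homeostatic genes such as P2ry12 and raise phagocytic and lysosomal genes, partly through the lipid receptor TREM2 and its adaptor TYROBP, while gliomas can also draw in monocytes from blood.

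Levels below are log2 signals relative to the array's 75th percentile, so a level of 0 equals that percentile, and a change is the glioma mean minus the normal brain mean. Of the spots other than controls, 65.9% to 70.3% were well above background on the glioma arrays and 61.5% to 64.0% on the normal brain arrays, and no such spot was saturated. All arrays lay on 1 slide in 1 scan, where one row held the gliomas and another normal brain, and row and group cannot be told apart. The groups differed widely. Of all tested genes, 51.4% passed an adjusted p of 0.05 in limma, with 23.6% higher and 27.8% lower in glioma. Signal summed over 10 oligodendrocyte progenitor genes was 331 to 381 times the percentile in glioma, against 37.0 to 37.7 in normal brain, and over 11 neuron genes it was 46.9 to 71.4 in glioma, against 514 to 518 in normal brain. Xist was high on glioma array 3 and low on the other 4 arrays, with Ddx3y and Eif2s3y not detected on glioma array 3, so that tumour differed in sex from the others. Cybb and Gpr34 lie on chromosome X.

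Among the 38 members, 14 rose in glioma, 2 fell and 22 did not pass the test. Higher calls made up 23.6% of all tested genes and lower calls 27.8%. The members' median log2 change was 0.82, beside -0.05 for all genes tested. The glioma levels lay entirely above those of normal brain for 18 members and entirely below for 2, where 35.2% and 38.8% of all genes did so (20 of 38 members in either direction, against 74.1% of all genes). By class, 8 of 12 core myeloid genes rose and none fell, 1 of 10 homeostatic genes rose and 1 fell, 3 of 8 activated genes rose and none fell, and 2 of 8 monocyte-derived genes rose and 1 fell. The class medians of the log2 change were 1.35 for core myeloid, 0.16 for homeostatic, 1.05 for activated and 0.58 for monocyte-derived genes. Spi1, Cybb, Cst7 and Plac8 entered the test through their glioma arrays alone and so could only differ upwards. Over the 32 members detected on all 5 arrays, 10 rose and 2 fell, where 23.9% and 29.5% of genes so detected did. There 6 of 10 core myeloid, 1 of 10 homeostatic, 2 of 7 activated and 1 of 5 monocyte-derived genes rose, and the medians were 1.11, 0.16, 0.55 and -0.35. The number of members that rose was 5 without normal brain array 1 and also 5 without normal brain array 2, and the number that fell was 1 in both cases. Cybb, Gpnmb, Plac8 and Olfml3 kept their call in both, Spi1 and Fcer1g without array 1 alone, and Sall1 and Lyz2 without array 2 alone.

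**Figure D1:**
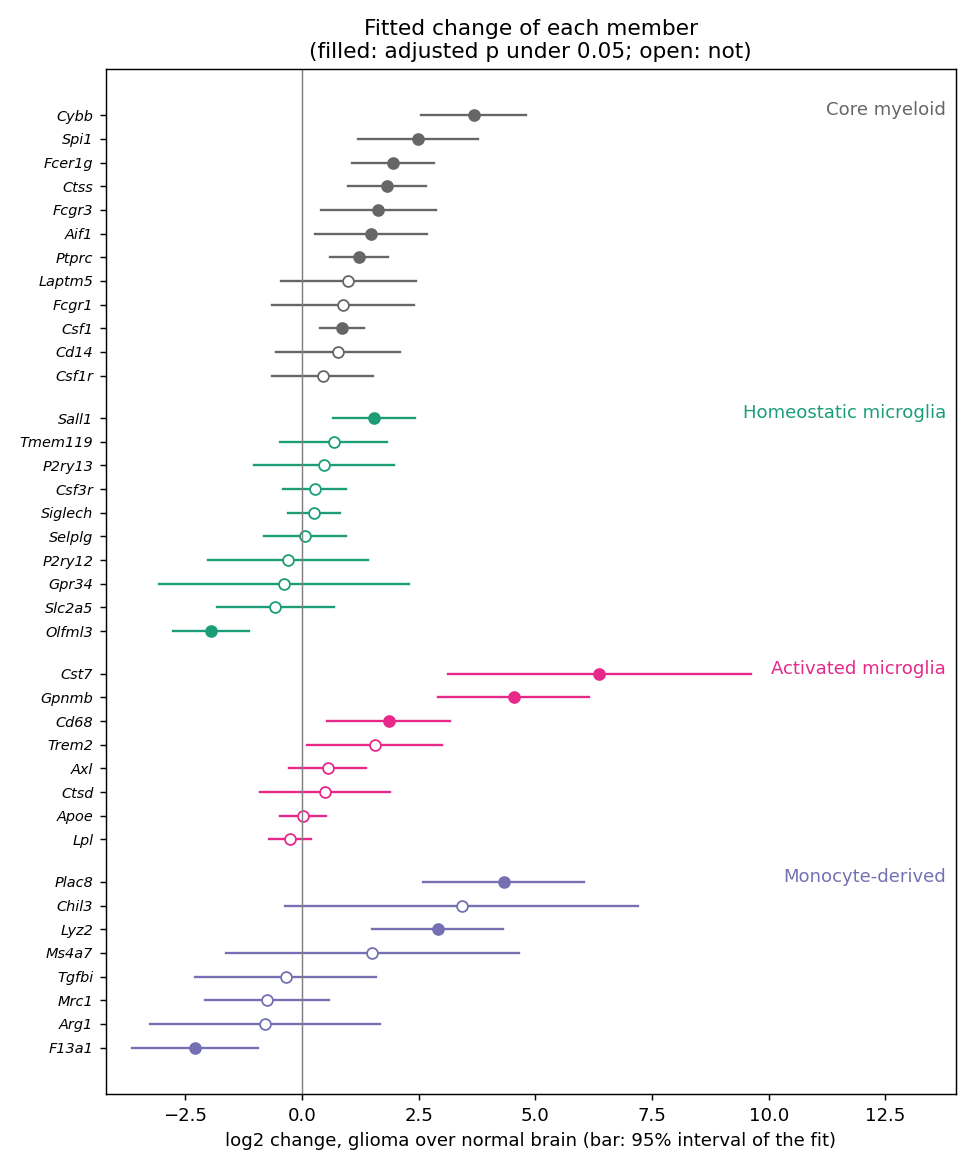
Fitted log2 change, glioma over normal brain, of the 38 measured members by class, with the 95% interval of the fit. Filled points passed an adjusted p of 0.05. The 8 filled core myeloid points lie right of 0, whereas 8 of 10 homeostatic points are open and their intervals include 0. For Spi1, Cybb, Cst7 and Plac8 the fit uses normal brain signals that were not well above background, as on 1 normal brain array for Chil3 and in both groups for Arg1.

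Promoter sequences are shown for 6 members that span the classes, 4 of them called higher in glioma (Cybb, Cst7, Gpnmb and Lyz2), with Chil3 and P2ry12 as members that varied between gliomas. Each runs 5′ to 3′ on the gene's strand, from 250 bases before to 50 after the start, from RefSeq on GRCm38.p6. Capitals mark matches, on either strand, to AGGAAGT (the PU.1 core), GAGGAA (a PU box), GGAA and GAAA with 2 bases between them (an ETS-IRF composite), TGANTCA (AP-1) or GTCACGTG (an E-box bound by TFEB), and adjoining capitals can hold overlapping matches. Cybb lies at chrX:9469275-9469574 on the minus strand, Cst7 at chr2:150570165-150570464 on the plus strand and Gpnmb at chr6:49036268-49036567 on the plus strand. Lyz2 lies at chr10:117282223-117282522, Chil3 at chr3:106167515-106167814 and P2ry12 at chr3:59262936-59263235, all on the minus strand.
Cybb: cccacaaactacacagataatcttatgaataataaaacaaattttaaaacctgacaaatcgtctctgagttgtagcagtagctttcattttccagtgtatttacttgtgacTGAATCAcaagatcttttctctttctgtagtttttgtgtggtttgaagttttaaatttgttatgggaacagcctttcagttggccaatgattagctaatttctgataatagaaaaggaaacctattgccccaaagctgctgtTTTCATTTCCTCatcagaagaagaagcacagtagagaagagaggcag
Cst7: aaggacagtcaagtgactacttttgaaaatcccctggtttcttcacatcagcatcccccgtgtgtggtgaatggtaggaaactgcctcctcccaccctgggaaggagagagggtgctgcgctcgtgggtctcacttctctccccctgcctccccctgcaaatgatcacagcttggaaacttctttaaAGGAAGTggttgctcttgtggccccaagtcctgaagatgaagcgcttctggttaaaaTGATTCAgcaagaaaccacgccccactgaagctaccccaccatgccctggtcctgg
Gpnmb: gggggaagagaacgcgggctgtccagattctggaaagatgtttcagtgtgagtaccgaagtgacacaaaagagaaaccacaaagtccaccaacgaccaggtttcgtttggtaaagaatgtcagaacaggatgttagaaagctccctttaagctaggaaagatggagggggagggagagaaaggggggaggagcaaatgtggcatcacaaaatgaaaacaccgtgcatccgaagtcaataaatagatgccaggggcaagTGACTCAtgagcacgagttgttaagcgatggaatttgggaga
Lyz2: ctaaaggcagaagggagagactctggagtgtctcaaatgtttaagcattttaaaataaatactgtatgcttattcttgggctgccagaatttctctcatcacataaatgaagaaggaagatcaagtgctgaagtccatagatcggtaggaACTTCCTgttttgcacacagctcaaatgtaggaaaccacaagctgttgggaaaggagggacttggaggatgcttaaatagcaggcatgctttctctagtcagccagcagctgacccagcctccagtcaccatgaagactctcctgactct
Chil3: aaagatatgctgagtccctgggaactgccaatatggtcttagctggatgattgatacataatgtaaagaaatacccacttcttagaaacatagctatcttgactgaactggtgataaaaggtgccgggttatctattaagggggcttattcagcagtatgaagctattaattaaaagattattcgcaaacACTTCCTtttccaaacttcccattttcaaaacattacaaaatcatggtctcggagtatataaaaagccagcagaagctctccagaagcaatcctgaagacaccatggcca
P2ry12: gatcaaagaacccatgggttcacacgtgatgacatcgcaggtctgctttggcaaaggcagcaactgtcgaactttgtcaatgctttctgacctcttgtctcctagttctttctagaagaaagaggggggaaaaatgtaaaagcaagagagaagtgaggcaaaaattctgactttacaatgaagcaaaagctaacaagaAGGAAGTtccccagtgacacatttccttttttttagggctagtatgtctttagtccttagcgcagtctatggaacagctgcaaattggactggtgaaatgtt

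The PU.1 core occurred in 10 of the 31 members with a RefSeq promoter window, or 32.3%, and in 10.7% of 27025 genes. It was present in the windows of Cst7, Lyz2, Chil3 and P2ry12 shown above, 2 of which were called higher and 2 not called. The PU box occurred in 61.3% of members and 31.3% of genes, the ETS-IRF composite in 9.68% and 3.16%, AP-1 in 19.4% and 8.97%, and the TFEB E-box in 3.23% and 2.55%. Cybb, Cd68 and Clec7a held the composite and Ctsd alone among the members held the E-box. The motifs were chosen after their match counts were seen, a gene counts as matched if any of its windows matches, and a match describes letters, not a bound site.

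The core myeloid genes were mostly higher in glioma, while the receptor that microglia depend on was not called. Csf1r, the receptor for CSF1 and IL-34, had levels of 5.12, 5.82 and 4.40 in gliomas 1 to 3, against 4.61 and 4.73 in normal brain. Normal brain lay inside the glioma range, the log2 change was 0.44 ± 0.42 (SE), and its adjusted p was 0.419. Csf1, which encodes its ligand, had levels of 1.41, 1.82 and 1.51 in the gliomas, against 0.61 and 0.82 in normal brain. All gliomas exceeded both normal brain samples, and Csf1 rose by 0.86 ± 0.19 (SE; adjusted p = 0.0144). Its 10 repeated spots varied by an SD of 0.034 to 0.080 within an array, which covers spot error alone. The other pair of Csf1 probes had log2 changes of 1.85 and 2.04, so the size of the change depended on the probe. Glial cells and neurons can also make CSF1.

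Spi1, which encodes PU.1, was dim. Its levels were -4.54, -3.70 and -5.35 in the gliomas, against -6.81 and -7.24 in normal brain, where it was not well above background. Spi1 was therefore at least 2.29-fold higher in glioma (adjusted p = 0.0119). Such a bound sets each dim array to the higher of its lowest signal well above background and the gene's own signal. It rests on the processed signal and leaves out the spread between samples, so it is not the low end of an interval. Cybb encodes the catalytic subunit of the phagocyte NADPH oxidase. It had levels of -3.76, -4.39 and -2.90 in the gliomas, against -7.38 and -7.34 in normal brain, again not well above background. Cybb was at least 4.12-fold higher (adjusted p = 0.00226), and all 3 gliomas lay above both normal brain samples. Both calls were lost with normexp background correction, where Spi1 had a log2 change of 0.31 (adjusted p = 0.167) and Cybb of 0.71 (adjusted p = 0.096). Over all alternatives the adjusted p ran from 0.00666 to 0.167 for Spi1, whose call was also lost without normal brain array 2 (adjusted p = 0.0712), and from 0.0010 to 0.096 for Cybb.

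Genes of antigen processing and antibody binding were also measured. Ctss, which encodes the protease cathepsin S used in MHC class II antigen processing, had levels of 4.95, 5.93 and 5.09 in the gliomas, against 3.52 and 3.48 in normal brain, a log2 change of 1.82 ± 0.33 (SE; adjusted p = 0.00813). Fcer1g encodes the common gamma chain that signals for Fc receptors. Its levels were 3.64, 4.65 and 3.72 in the gliomas, against 2.09 and 2.00 in normal brain, and it rose by 1.96 ± 0.34 (SE; adjusted p = 0.00754). For both genes the gap between the groups exceeded the range of the gliomas. Fcgr3, a low-affinity IgG receptor, had levels of 0.79, 1.32 and -0.29 in the gliomas, against -1.06 and -1.01 in normal brain (log2 change 1.64 ± 0.49, SE; adjusted p = 0.0398). Fcgr1, the high-affinity IgG receptor, had levels of -0.85, 0.11 and -1.91 in the gliomas, against -1.89 and -1.65 in normal brain. Glioma 3 lay at the normal brain level and Fcgr1 was not called (adjusted p = 0.264).

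Aif1, which encodes the microglial marker IBA1, had levels of 2.91, 3.96 and 2.39 in the gliomas, against 1.59 and 1.61 in normal brain (log2 change 1.48 ± 0.47, SE; adjusted p = 0.0483). All gliomas were above normal brain. Without glioma 1 the calls of Aif1 (adjusted p = 0.0902) and Fcgr3 (0.100) were lost, and that of Fcgr3 also without glioma 2 (0.0716). Ptprc encodes CD45, a phosphatase of nearly all white blood cells. Its levels were -2.46, -1.80 and -2.24 in the gliomas, against -3.25 and -3.52 in normal brain, and it rose by 1.22 ± 0.24 (SE; adjusted p = 0.0109). Laptm5, a lysosomal membrane protein of blood cells, had a log2 change of 1.00 and Cd14, a co-receptor for lipopolysaccharide, of 0.78. Neither was called, at adjusted p of 0.197 and 0.262, and both were lowest in glioma 3 among the tumours. Without glioma 3, Cd14 (log2 change 1.25, adjusted p = 0.0259) and Fcgr1 (1.39, adjusted p = 0.0425) passed.

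**Figure D2:**
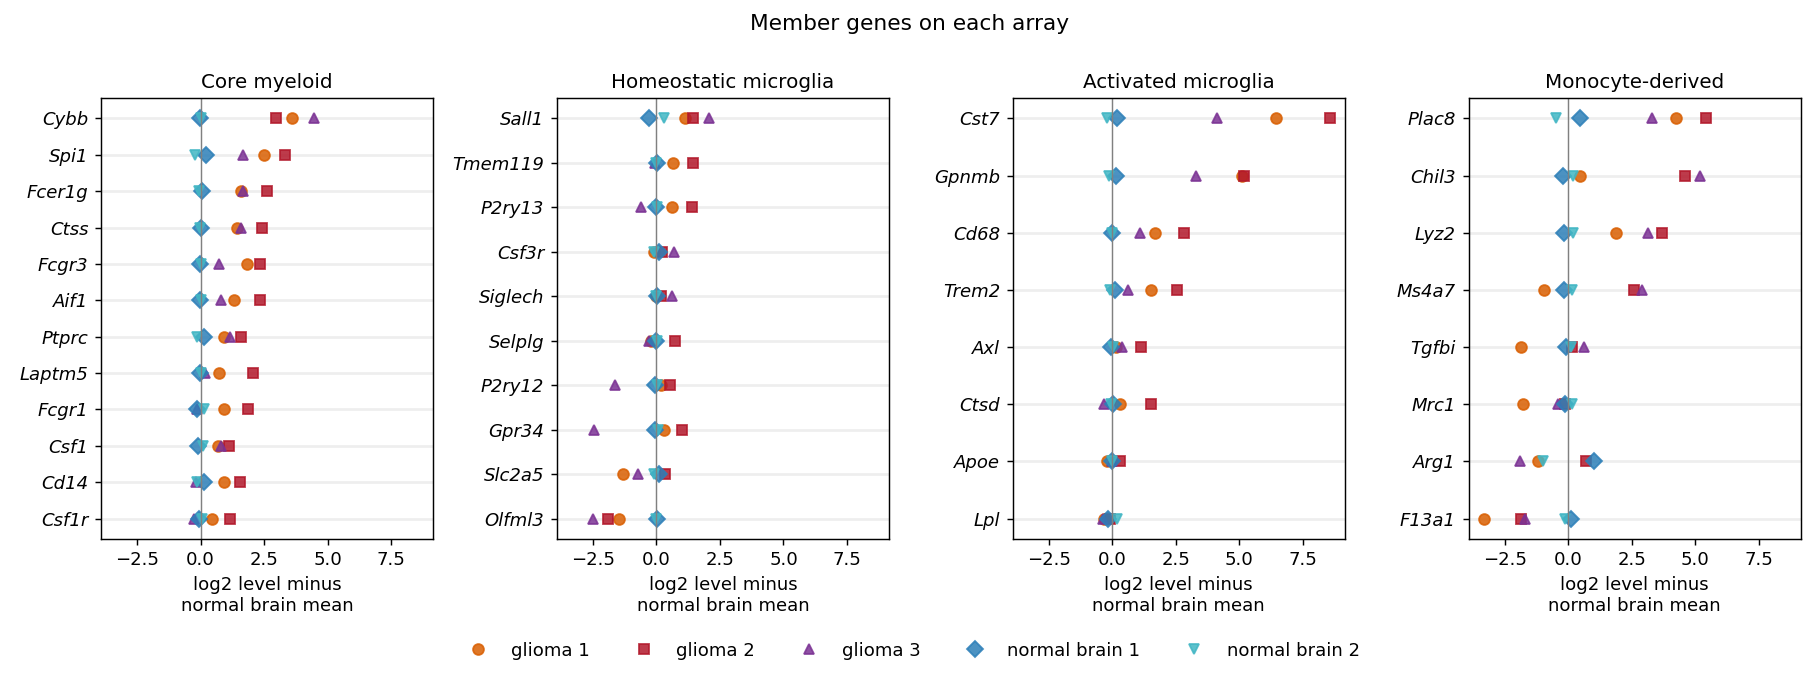
Log2 level of each member on each array minus the normal brain mean of that member, by class, with 1 marker for each glioma and each normal brain array. Glioma 2 holds the highest glioma level for 29 of the 38 members.

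The homeostatic genes showed little common change, and their most-used markers differed more between gliomas than between the groups. P2ry12, the ADP receptor that guides microglial processes, had levels of 0.42, 0.74 and -1.39 in the gliomas, against 0.18 and 0.26 in normal brain. Gliomas 1 and 2 were above and glioma 3 below normal brain. The log2 change was -0.29, with a 95% interval of -2.0 to 1.42 (adjusted p = 0.735). Its neighbour in the same receptor family, P2ry13, had levels of 0.14, 0.90 and -1.08 in the gliomas, against -0.50 and -0.47 in normal brain (adjusted p = 0.533). Gpr34, a lysophosphatidylserine receptor, had levels of -0.52, 0.17 and -3.27 in the gliomas, against -0.90 and -0.75 in normal brain. Glioma 3 was again the lowest sample, and the interval of the change ran from -3.05 to 2.29. For P2ry12, P2ry13 and Gpr34 the same tumour was lowest, and that tumour also differed in sex. The part of sex was not tested.

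Sall1, a transcription factor that maintains microglial identity, was the homeostatic gene that rose. Its levels were -0.73, -0.42 and 0.20 in the gliomas, against -2.17 and -1.56 in normal brain, a log2 change of 1.55 ± 0.35 (SE; adjusted p = 0.0164). Unlike the purinergic receptors it was highest in glioma 3, and which cells carried its rise was not tested. Olfml3, a secreted protein of microglia, was the gene of the class that fell. It had levels of 0.56, 0.10 and -0.47 in the gliomas, against 2.02 and 2.01 in normal brain (log2 change -1.95 ± 0.32, SE; adjusted p = 0.00591). Its other detected probe pointed the opposite way. That probe read 1.26, 1.70 and 0.14 in the gliomas, against -0.02 and 0.05 in normal brain, a log2 change of 1.02 that was not called (adjusted p over all probes 0.145). The direction of Olfml3 therefore depended on the probe. Olfml3 is also made by vessel-wall cells, and of 10 mural and fibroblast genes 7 fell and 1 rose, with a summed signal of 37.3 to 44.4 times the percentile in glioma, against 22.1 to 23.0 in normal brain. Up to 88.5% of the glioma sum came from Cspg4, the gene that rose, which is also a progenitor gene, and without it the sum was 5.06 to 6.32 in glioma, against 20.7 to 21.8 in normal brain. Their part in the change of Olfml3 was not tested.

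Siglech, a lectin of microglia, likewise had probes in opposite directions. Its brighter probe had levels of 6.11, 6.30 and 6.72 in the gliomas, against 6.15 and 6.08 in normal brain, and its other probe read 0.59, 1.02 and -1.75, against 0.72 and 0.78. The dimmer probe shows the low value of glioma 3 seen for P2ry12 and Gpr34, and the brighter does not. Siglech was not called (log2 change 0.26, adjusted p = 0.358). Tmem119, a membrane protein used to tell microglia from other macrophages, had levels of 2.24, 3.05 and 1.55 in the gliomas, against 1.62 and 1.58 in normal brain (log2 change 0.68, 95% interval -0.46 to 1.83). Selplg, the ligand of P-selectin, had a log2 change of 0.07 (interval -0.81 to 0.95), Slc2a5, a fructose transporter, of -0.57 (-1.83 to 0.70) and Csf3r, the receptor for G-CSF, of 0.28 (-0.40 to 0.95). None of these 4 genes was called, and their intervals include changes of either sign. Slc2a5 passed without glioma 2, with a log2 change of -1.02 (adjusted p = 0.0430).

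**Figure D3:**
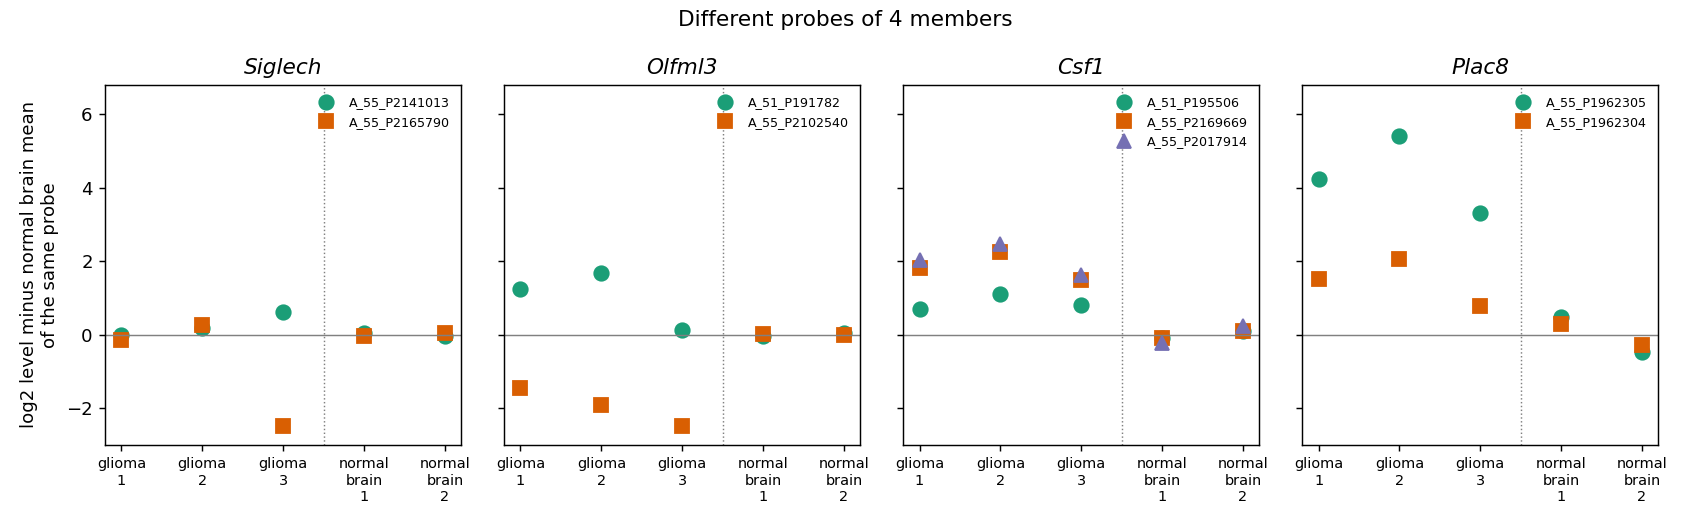
Log2 level of each probe of Siglech, Olfml3, Csf1 and Plac8 on each array, minus that probe's normal brain mean, with gliomas left of normal brain. For Olfml3 one probe is lower in all 3 gliomas, while the other is higher in all 3.

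Activated genes split into a few with high glioma signal and others near normal brain. Gpnmb, a lysosome-associated glycoprotein of lipid-laden macrophages, had levels of 1.24, 1.32 and -0.59 in the gliomas, against -3.74 and -4.02 in normal brain. All gliomas were far above both normal brain samples, a log2 change of 4.54 ± 0.63 (SE), or 23.2-fold, with an adjusted p of 0.00358. The log2 change was 3.51 with normexp correction and 5.16 without glioma 3. Cst7 encodes cystatin F, an inhibitor of lysosomal proteases, and had levels of 1.07, 3.19 and -1.22 in the gliomas, against -5.17 and -5.55 in normal brain, where it was not well above background. On the processed signal averaged over the gliomas, Cst7 was at least 76.0-fold higher than in normal brain (adjusted p = 0.0114). Its levels in the gliomas differed from each other by 4.41. Its fitted log2 change ranged from 5.28 without glioma 2 to 7.49 without glioma 3, was 4.01 with normexp correction, and lost its call without normal brain array 1 (adjusted p = 0.0528) or 2 (0.0604). Cd68, a lysosomal protein of phagocytes, had levels of 2.59, 3.74 and 2.00 in the gliomas, against 0.93 and 0.91 in normal brain (log2 change 1.86 ± 0.52, SE; adjusted p = 0.0333). Without glioma 1 its adjusted p was 0.0700.

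Trem2, the lipid receptor of activated microglia, was above normal brain in every glioma and did not pass the test. It had levels of 3.62, 4.62 and 2.69 in the gliomas, against 2.17 and 2.00 in normal brain, with a log2 change of 1.56 ± 0.57 (SE; adjusted p = 0.0707). Without glioma 3 the change was 2.04 and passed (adjusted p = 0.0177), and it also passed with normexp correction (1.57, adjusted p = 0.0433). Apoe, a lipid carrier, had levels of 7.83, 8.35 and 8.04 in the gliomas, against 8.05 and 8.05 in normal brain. Its 95% interval of -0.47 to 0.52 was among the narrower ones of the class. Lpl, a lipase, had a log2 change of -0.26 (interval -0.72 to 0.19), Axl, a receptor that clears apoptotic cells, of 0.55 (-0.27 to 1.36) and Ctsd, the protease cathepsin D, of 0.49 (-0.91 to 1.89), and none was called. Astrocytes also make Apoe. Of 12 astrocyte genes 6 fell and 1 rose (Sox9), with summed signals of 173 to 301 times the percentile in glioma, against 336 to 350 in normal brain (44.3 to 63.8 in glioma, against 91.6 to 92.6 in normal brain, without Aldoc), and their part in the level of Apoe was not tested. Among the gliomas, all 8 measured activated genes were highest in glioma 2.

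The monocyte-derived genes moved in both directions and varied most between tumours. Lyz2, which encodes lysozyme of myeloid cells, had levels of -1.73, 0.06 and -0.49 in the gliomas, against -3.80 and -3.44 in normal brain (log2 change 2.90 ± 0.55, SE; adjusted p = 0.00963). Plac8, a small protein of monocytes and other white blood cells, had levels of -1.50, -0.34 and -2.44 in the gliomas, against -5.27 and -6.23 in normal brain, where it was not well above background. Plac8 was at least 14.5-fold higher (adjusted p = 0.00507), and no glioma overlapped normal brain for either gene. The fitted log2 change of Plac8 was 4.32, but 2.06 with normexp correction, and its other probe had a change of 1.45, so the bound holds for the brighter probe and the processed signal. F13a1, a clotting factor subunit made by monocytes and border macrophages, fell. It had levels of -5.12, -3.65 and -3.51 in the gliomas, against -1.67 and -1.93 in normal brain (log2 change -2.29 ± 0.53, SE; adjusted p = 0.0186).

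The other 5 members of the class were not called, and in 4 of them the gliomas spanned over 2 on the log2 scale. Chil3, a chitinase-like protein of alternatively activated macrophages and neutrophils, had levels of -4.56, -0.44 and 0.17 in the gliomas, against -5.23 and -4.84 in normal brain. Glioma 1 lay near normal brain and gliomas 2 and 3 far above it (log2 change 3.43 ± 1.48, SE; adjusted p = 0.109), with 1 of the 2 normal brain arrays well above background. Without glioma 1 the change was 4.90 and passed (adjusted p = 0.00179), where the other alternatives gave 0.0799 to 0.286. Ms4a7, a membrane protein of macrophages, had levels of -3.60, -0.08 and 0.24 in the gliomas, against -2.81 and -2.49 in normal brain (adjusted p = 0.347), with glioma 1 again lowest. Without glioma 1 its change was 2.73 and passed (adjusted p = 0.00258). Tgfbi, a matrix protein induced by TGF-beta, had levels of -1.02, 0.97 and 1.46 in the gliomas, against 0.72 and 0.92 in normal brain (adjusted p = 0.721). For Chil3, Ms4a7 and Tgfbi, gliomas 2 and 3 lay above normal brain. Arg1, which encodes the enzyme arginase of alternatively activated macrophages, had levels of -6.95, -5.06 and -7.66 in the gliomas, against -4.76 and -6.77 in normal brain, and was well above background on 1 array of each group. Mrc1, the mannose receptor of border macrophages, had a log2 change of -0.76 (95% interval -2.09 to 0.57).

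Neutrophils share some of these transcripts. Of 4 tested neutrophil genes, 1 was higher and 1 lower, near the 23.6% and 27.8% of all genes. In all, 11 such genes were listed and 10 had a probe. Their summed signal was 0.865 to 2.04 times the percentile in glioma, against 1.05 to 1.10 in normal brain, and without Mpo, up to 67.1% of the glioma sum, it was 0.662 to 0.749 in glioma, against 1.03 to 1.08 in normal brain. Ngp, Ltf, Mmp8 and Retnlg were not detected on any array. The part of neutrophils in Lyz2, Plac8 and Chil3 was not tested.

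Between tumours, the classes had different orders. The median level over normal brain was 1.12, 2.21 and 0.79 in gliomas 1 to 3 for core myeloid genes, and 0.92, 2.02 and 0.49 for activated genes. It was 0.10, 0.62 and -0.45 for homeostatic genes, while all genes tested had medians of -0.04, -0.05 and -0.06. Glioma 2 was the highest in each of these 3 classes. For monocyte-derived genes the medians were -1.06, 1.64 and 1.77, so the median of glioma 3 stood beside that of glioma 2. The median of glioma 1 lay below normal brain, but the class was split there. In glioma 1, Lyz2, Plac8 and Chil3 lay above both normal brain samples, and the rest of the class lay below both. Among monocyte-derived genes 6 of 8 were lowest in glioma 1, compared with 29.8% of all genes, and 7 of 12 core myeloid, 6 of 10 homeostatic and 6 of 8 activated genes were lowest in glioma 3, compared with 38.5%. Over all members, 29 of 38 were highest in glioma 2 (27.6% of all genes), 8 in glioma 3 (35.1% of all genes) and 1 in glioma 1, and 9 spanned over 2 between gliomas (3.87% of all genes). These are descriptions of 3 tumours, with no test. Genes of dividing cells were also highest in glioma 2, with summed signals of 26.6, 49.2 and 30.0 times the percentile in gliomas 1 to 3, against 0.888 and 1.04 in normal brain. Mature oligodendrocyte genes had sums of 123, 347 and 74.5 in the gliomas, against 335 and 363 in normal brain. In glioma 2 Mag made up 61.5% of that sum, and without Mag the sums were 83.2, 134 and 65.6 in the gliomas, against 298 and 323 in normal brain. The part of these cells in the differences between tumours was not tested.

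**Figure D4:**
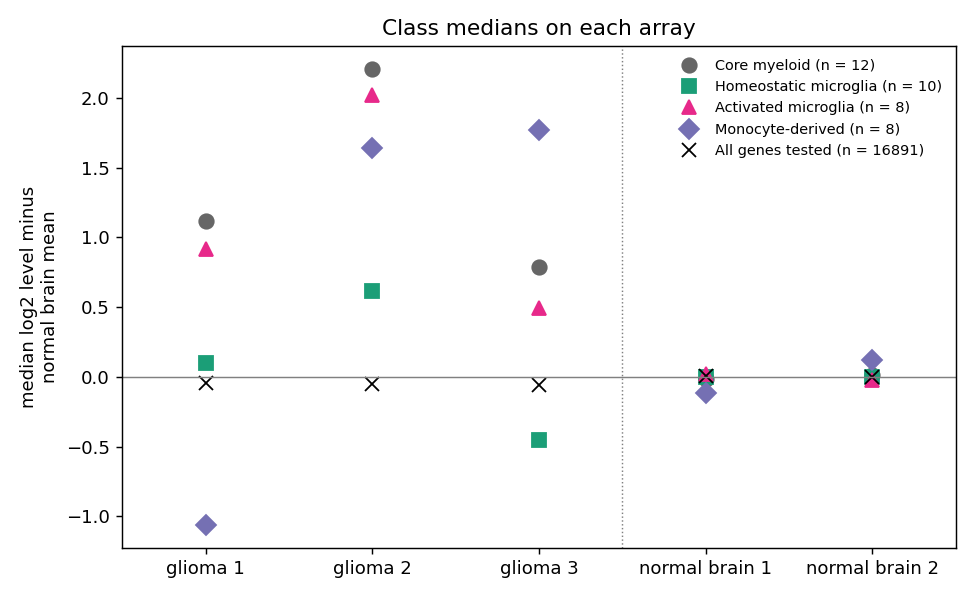
Median over the members of each class of the log2 level minus the normal brain mean, on each array, with gliomas left of normal brain. Core myeloid, homeostatic and activated medians peak in glioma 2, whereas the monocyte-derived median is -1.06 in glioma 1 and 1.77 in glioma 3.

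Genes around the members were read from 4 further lists. In CSF1R and TREM2 signalling, 9 of 15 tested genes rose and 2 fell, where 23.6% and 27.8% of all genes did. The median log2 change was 1.58, beside -0.05 for all genes. Runx1, a transcription factor of blood cells, rose by 4.21 (adjusted p = 0.000612), with 1 of the 2 normal brain arrays well above background. Irf8, a partner of PU.1, rose by 2.81 (adjusted p = 0.000802). Il34 went the other way from Csf1, its fellow ligand of CSF1R. Its levels were 0.31, -0.05 and 0.37 in the gliomas, against 2.77 and 2.77 in normal brain, a log2 change of -2.56 ± 0.18 (SE; adjusted p = 0.000593). Il34 is made mainly by neurons in brain, and all 11 neuron genes fell. Their part in the change of Il34 was not tested. Grb2, a signalling adaptor, had a log2 change of -0.47 (adjusted p = 0.0374).

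Among 16 other microglia genes 7 rose and 2 fell, where 23.6% and 27.8% of all genes did. The median change was 1.19, beside -0.05 for all genes. Gpr84, a fatty acid receptor, rose by 2.98, Lyn, a kinase of the Src family, by 2.21 and Cd86, a co-stimulatory protein, by 1.88, at adjusted p of 0.0125, 0.00186 and 0.0128. Itgam, which encodes CD11b, was called lower through its brightest probe (log2 change -1.83, adjusted p = 0.0439), while its other probes had changes of -0.08 and 0.45. Gas6, a ligand of AXL, had a log2 change of -0.79 (adjusted p = 0.0464). The median change of 16 other activation genes was 1.66. Of them 10 passed as higher and 0 as lower, where 23.6% and 27.8% of all genes did. Ccl3, Tnf and Il1b entered the test through their glioma arrays alone and so could only differ upwards. Ccl3 and Tnf were called higher and Il1b was not called. Itgax, which encodes CD11c, had levels of 1.08, 2.46 and 1.57 in the gliomas, against -5.33 and -4.64 in normal brain (log2 change 6.69 ± 0.46, SE; adjusted p = 0.000571), with 1 of the 2 normal brain arrays well above background. The chemokine Ccl3 had a fitted log2 change of 4.20 ± 0.51 (SE; adjusted p = 0.00236), or 18.4-fold. Its normal brain signals were not well above background, and its bound equalled this fitted value, so no lower limit is given. Ccl4 rose by 3.95 (adjusted p = 0.0027), with 1 of the 2 normal brain arrays well above background.

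Of 13 tested genes of monocytes and border macrophages, 2 rose and 3 fell, with a median of -0.38. These shares lie below the 23.6% and 27.8% of all genes. Vcan, a matrix proteoglycan, rose by 4.08 (adjusted p = 0.00115). It is also made by oligodendrocyte progenitors, of whose 10 genes 9 rose, and their part was not tested. S100a4, a calcium-binding protein, rose by 1.51 (adjusted p = 0.0317). The lower calls were of Pf4, Retnla and Lyve1, which border macrophages express. Pf4 had a log2 change of -2.98 ± 0.28 (SE; adjusted p = 0.00109), Retnla was at least 3.39-fold lower (adjusted p = 0.00114) and Lyve1 at least 2.80-fold lower (adjusted p = 0.00315). Retnla and Lyve1 entered the test through normal brain alone and so could only differ downwards. Stab1 (log2 change -0.11) and Folr2 (-0.29), expressed by the same cells, were not called. The fibroblast genes Lum and Dcn had log2 changes of -3.39 and -2.82, and the part of fewer such cells was not tested. Ccr2, the chemokine receptor of blood monocytes, and Cd163 were not well above background on enough arrays to be tested, and Ly6c2 had no matched probe.

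**Figure D5:**
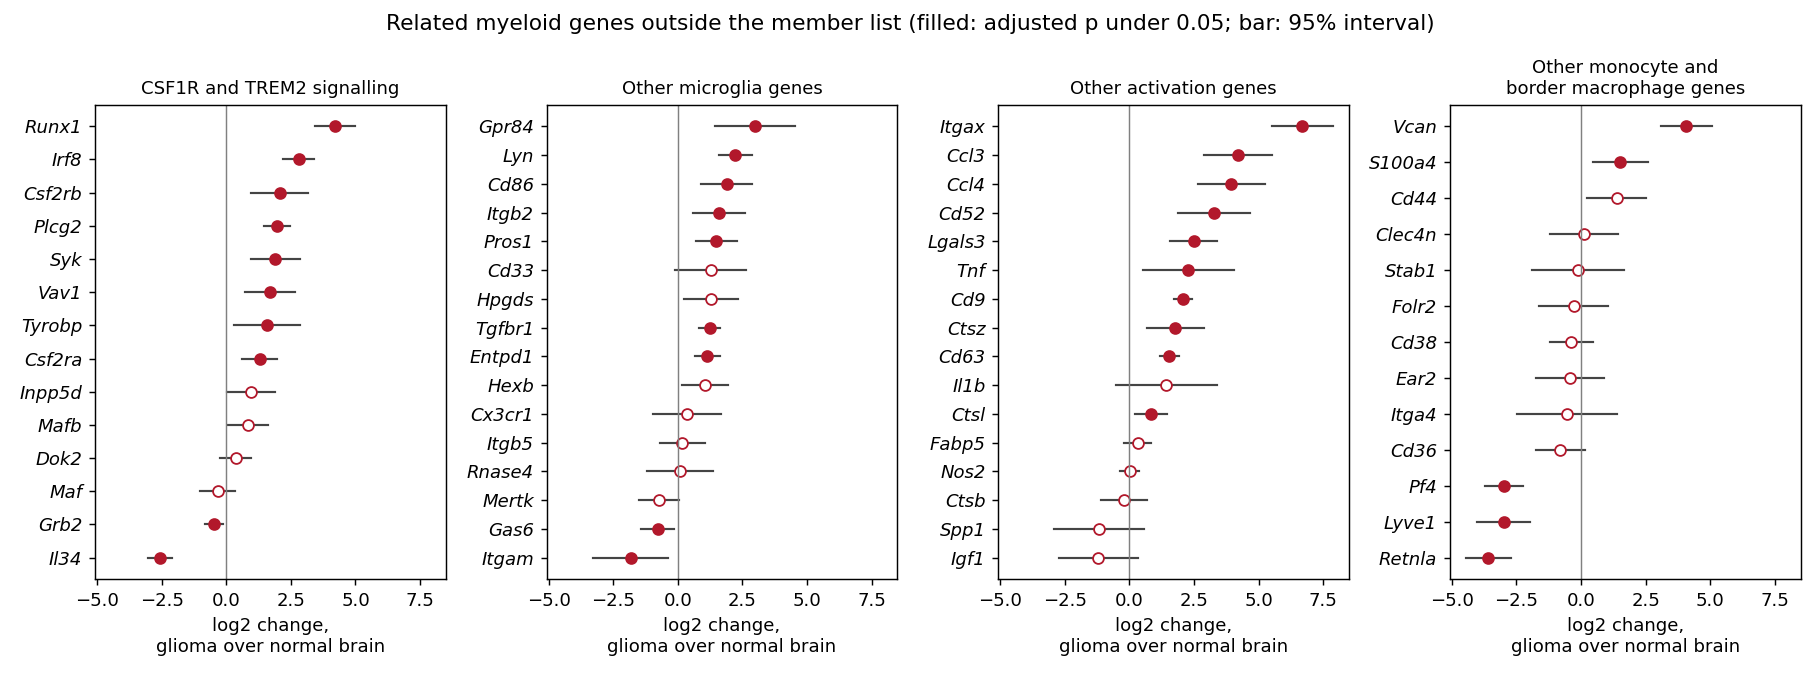
Log2 change, glioma over normal brain, of the genes drawn from the 4 further lists, with 95% intervals as bars and filled points for an adjusted p under 0.05. The fits of Ccl3, Tnf, Il1b, Retnla and Lyve1 use signals not well above background in 1 group. For Tnf and Il1b, 2 of the 3 glioma arrays were well above background. Changes of activation genes lie mostly above 0 with Itgax at 6.69, and those of monocyte and border macrophage genes lie on both sides.

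Few lymphocyte genes were measurable. Of 6 tested T and NK cell genes, 2 fell and none rose, where 27.8% and 23.6% of all genes did. In all, 12 such genes were listed and 11 had a probe. Their summed signal was 3.68 to 5.46 times the percentile in glioma, against 5.73 to 6.04 in normal brain, and Cd3g, Klrb1c and Ncr1 were not detected on any array. Of 6 B cell genes 2 were tested and 1 rose (Cd79b, log2 change 1.66, adjusted p = 0.0295), while Ms4a1 was not detected on any array.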

How the data were processed

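The submitters' processing notes name Agilent Feature Extraction 10.7.3.1, with which the authors made the deposited intensity values, a processed signal for each spot. Background was subtracted with spatial detrending, the array design was annotated on mm9, and flags for background, saturation and outliers were set, per the file headers. The authors' deposited value table holds log2 values equal to the log2 of that signal, with no scaling between arrays. Here each array's 75th percentile of log2 signal was subtracted. Control spots, outlier spots and 23 of 55681 probes (outliers on all spots of an array) were left out, and repeated spots were averaged. RefSeq accessions named 28026 probes. Each gene took its brightest probe and was tested if well above background on at least 2 arrays. The test of gliomas against normal brain used R 4.3.3 and limma 3.58.1 (lmFit, eBayes, two-sided, Benjamini-Hochberg over 16891 genes, threshold 0.05). Tables and figures used Python 3.11.15, version 1.17.8 of the data.table package and matplotlib 3.10.9.

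Values on every array are given for called members, for members well above background in 1 group alone and for members spanning over 2 between gliomas, and others were added after their values were seen. From each related list, up to 3 called genes of its commoner direction and 2 of the opposite one are named, and a result that cannot be given is not reported here. The members, lists and classes were chosen with earlier results of these data known. Alternatives were normexp correction on median spot and background signals (offset 50), quantile normalization, the authors' table, median centring, other filters and probe rules, a replicate block and leaving out each array. The precision is limited by 3 and 2 arrays per group.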

Additional observations from a re-analysis of the deposited data

How the results depend on the processing

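Without normal brain array 1 or 2, 6 of the 16 called members kept their call in each case, and leaving out each array in turn gave 4630 to 9325 called genes in all, 5 to 17 members higher and 1 to 3 lower. Among called members, Aif1, Cd68 and Fcgr3 lost their call without glioma 1 and Fcgr3 without glioma 2, while all 16 kept it without glioma 3. The count of members lower was 1 with the mean of a gene's detected probes and 1 with its faintest detected probe, an alternative chosen after seeing the data, with log2 changes of Olfml3 of -0.47 and 1.02, neither called. Siglech changed sign with both, to -0.27 and -0.80. With the authors' unscaled table the median change of all genes was 0.31, the split of calls was 5598 higher and 3185 lower, in place of 3994 and 4693, and Lpl (0.10), P2ry12 (0.063) and Tgfbi (0.0048) changed sign, while all 16 called members kept their call. Over the arrays left out, changes ranged from -0.11 to 0.15 for Apoe, -0.014 to 0.90 for Ctsd, -0.26 to 0.25 for Selplg, -1.79 to 0.21 for Arg1, -1.07 to 0.65 for Gpr34, -0.70 to 0.36 for P2ry12 and -0.85 to 0.39 for Tgfbi. The class medians kept their direction except homeostatic genes (-0.07 with the mean of detected probes, and down to -0.12 with an array left out) and monocyte-derived genes (-0.35 over members detected on all 5 arrays). Normexp correction kept 14 of 16 calls, testing without the filter 15, and quantile normalization and median centring all 16. Replicate numbers pair no samples in the labels, and deviations of same-numbered samples correlated at 0.013 and 0.049. With the replicate block 8263 genes were called, 18 members were higher and 2 lower, all 16 calls held, Fcgr1, Cd14, P2ry13 and Trem2 were gained, and Gpr34 (0.65) and P2ry12 (0.36) changed sign. Glioma 3 has no normal brain sample of its number, so the block takes it out of the comparison, and these log2 changes equal those without glioma 3. The cause of the other shifts was not tested. A slide or scan block could not be run, since all arrays share 1 slide and 1 scan.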

Other observations

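Glioma arrays correlated with each other at 0.976 to 0.985 and with normal brain at 0.896 to 0.912 over all tested genes, while the 2 normal brain arrays correlated at 0.996. Endothelial genes were lower in glioma for 7 of 10, where 27.8% of all genes were. Their summed signal was 12.9 to 18.9 times the percentile in glioma, against 25.2 to 34.1 in normal brain. Itm2a read -3.08 and 2.65 on normal brain arrays 1 and 2, so the normal brain sums differ partly through that gene. Of 10 mature oligodendrocyte genes 6 fell and none rose, where 27.8% and 23.6% of all genes did. All 9 tested genes of dividing cells rose, where 23.6% of all genes did, with a median log2 change of 5.80. Cdk1, Bub1 and Cenpf entered the test through their glioma arrays alone and so could only differ upwards.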
